A study of Mus musculus with 22 samples.

Results

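Complement was followed in mouse liver through 30 genes of its components, regulators and receptors, taken as those probe sets whose 1 annotated gene symbol is a member. Of these 30 genes, 27 had a probe set of their own (51 probe sets), out of 18194 genes with one on the array, and 26 were bright enough to test. C3, C4b and Cfd had no single-gene probe set in the annotation used and were not analysed here, and C5ar1, the receptor of the anaphylatoxin C5a, was measured but lay below the signal filter. A total of 18 tested members are counted as hepatocyte-made, 4 as macrophage-made (the C1q chains C1qa, C1qb and C1qc, and the C3a receptor gene C3ar1) and 4 as neither (Cfp, Cd55, Cd59a and Cd93).

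The livers came from 22 male C57BL6 mice aged 8 weeks. Diclofenac sodium, a nonsteroidal anti-inflammatory drug, was injected into the peritoneum at 30 mg/kg each day, a dose the submitters call low, and control mice received saline. Animals were killed at day 1, day 3 or day 14, and each liver was hybridised to 1 Affymetrix Mouse 430 2.0 array, with 3 arrays per group at days 1 and 3 and 5 per group at day 14. The labels state 5 mice per group at every time, and no genetic alteration or other agent is named in any group.

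Complement is a cascade of plasma proteins that marks microbes and damaged cells and can pierce their membranes. It is started by C1q bound to antibody or to dying cells (classical pathway), by mannose-binding lectins on sugars (lectin pathway) or by slow spontaneous turnover with factor B (alternative pathway), and all routes meet at C3 and end in the terminal complex of C5 to C9. Hepatocytes make most of the plasma components and the soluble inhibitors, while C1q is made largely by macrophages, which in the liver are the Kupffer cells. In whole liver RNA, fewer cells of a type and less RNA per cell cannot be told apart.

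Replicate 3 of the diclofenac group of day 14 stood apart from its group, with a lowest array correlation of 0.876, and, like replicate 2 of the diclofenac group of day 1, had a summed neutrophil marker signal far above the other livers. The members whose day 14 difference it moved most are also given without it.

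Diclofenac livers had higher signals than saline livers for most complement genes on each day, by amounts that were small and that did not pass the test across all genes on any single day. The log2 difference, diclofenac minus saline, was above 0 for 21 of 26 members at day 1, 22 at day 3 and 23 at day 14, where 50.2%, 51.4% and 47.8% of all tested genes were above 0. An adjusted p under 0.05 in limma was reached by 0 members on each of these days, against 0% of all genes at day 1, 0.124% higher and 0.0776% lower at day 3, and 0% at day 14. At an unadjusted p under 0.05 in limma, 10 members were higher at day 1 (6.65% of all genes), 9 at day 3 (5.84%) and 13 at day 14 (5.81%), while 2 were lower at day 1 (6.34% of all genes), 0 at day 3 (5.01%) and 0 at day 14 (5.02%). When the effects of days 1 and 3 were averaged, 1 member, Serping1, rose with an adjusted p under 0.05 (0.505% of all genes higher, 0.171% lower). At an unadjusted p under 0.05, 13 members were higher for this mean effect (8.89% of all genes) and 1, Cd59a, lower (8.3%), and 21 of 26 were above 0 (50.3%). By the methods' t-test with its minimum of 1.5-fold, 0 members passed at days 1 and 3 and 1 at day 14 (0.776%, 1.58% and 1.38% of all genes higher, 0.683%, 0.908% and 1.01% lower), the 1 being C4bp, and none did after Benjamini-Hochberg adjustment.

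**Figure D1:**
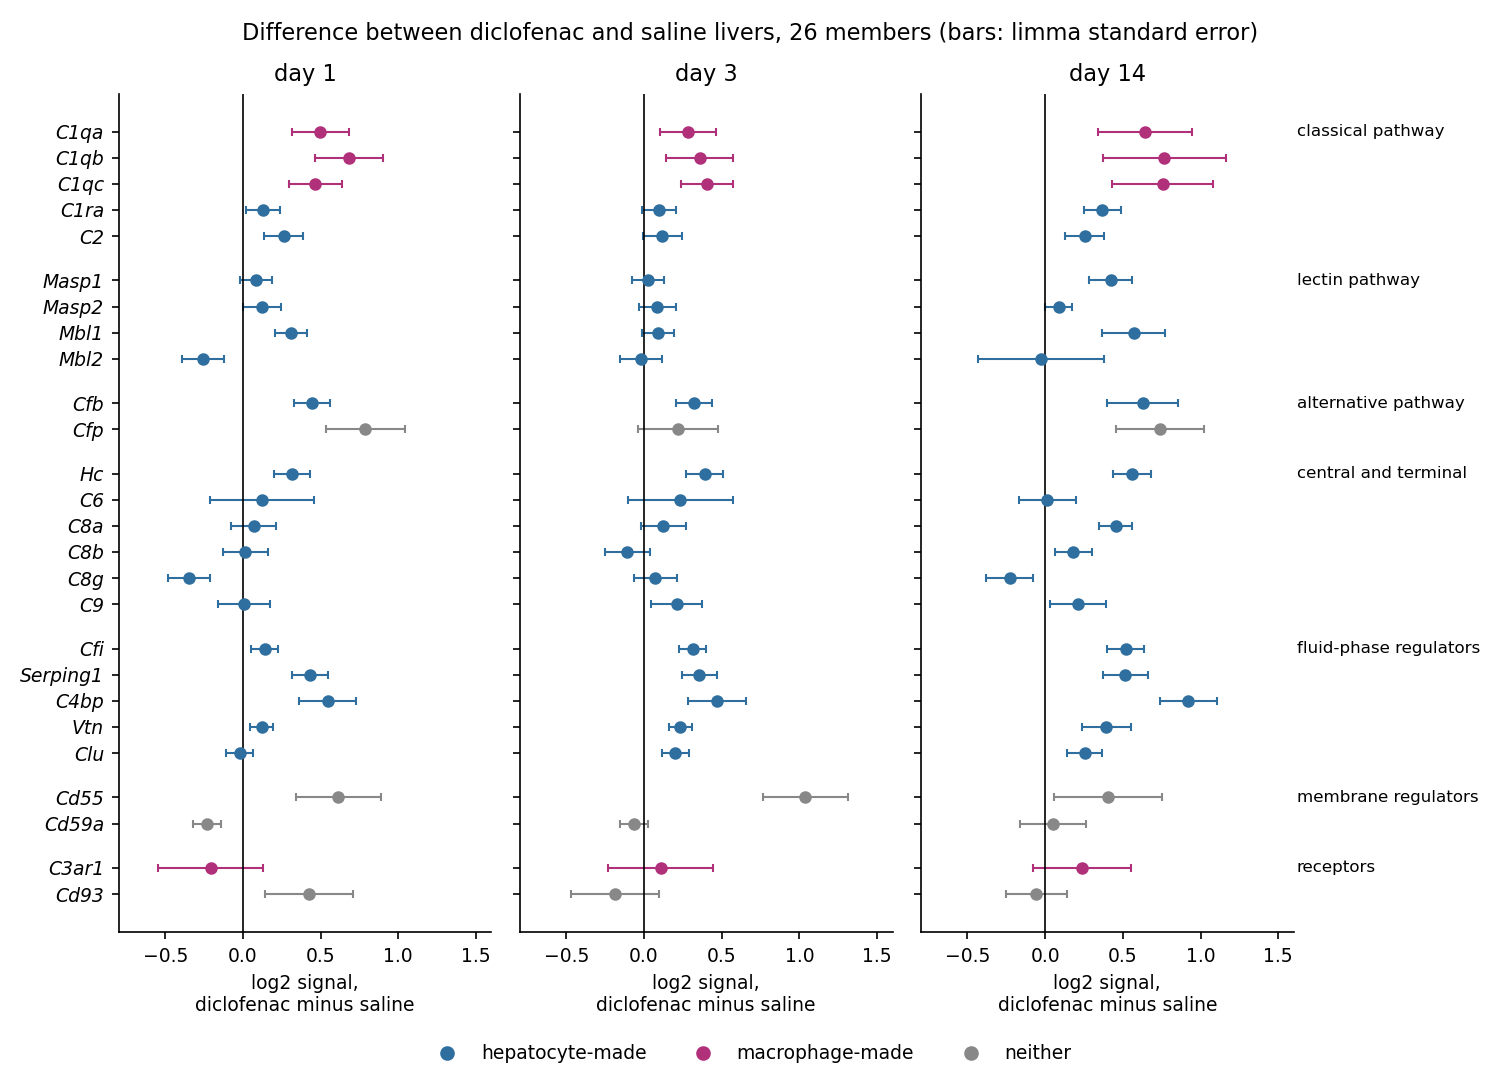
Log2 difference in signal between diclofenac and saline livers (x axis, diclofenac minus saline) for each of 26 members (y axis, grouped by role) at days 1, 3 and 14. Points are differences of group means, bars are limma standard errors, and colours give the cell type counted as the source. Most points lie to the right of 0, and the members to the left of it on at least 1 day include Mbl2, C8g and Cd59a.

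The soluble inhibitors of the cascade held both members whose groups were apart on every day, apart meaning that each diclofenac liver lay above each saline liver of the same day. Serping1 encodes C1 inhibitor, the serpin that stops C1r, C1s and the lectin pathway proteases. Its array signal was 29716, 29821 and 33437 in the saline livers of day 1 and 39791, 50784 and 35990 in the diclofenac livers. At day 3 the saline livers gave 27731, 30293 and 28631 and the diclofenac livers 39958, 35492 and 35497. At day 14 the saline livers ran from 33488 to 37965 (median 34453) and the diclofenac livers from 42352 to 70947 (median 46343). On all 3 days every diclofenac liver lay above every saline liver. On the log2 scale diclofenac exceeded saline by 0.43 at day 1, 0.36 at day 3 and 0.52 at day 14 (limma standard errors of 0.11, 0.11 and 0.15, with adjusted p = 0.251, 0.269 and 0.246). Averaged over days 1 and 3, Serping1 rose by 0.39 (standard error 0.08, adjusted p = 0.0459 from limma). The call was a narrow one, lost in 7 of 10 other settings, with a replicate block among them (adjusted p = 0.118), and in 8 of 12 fits that each left out 1 array, while the difference itself stayed between 0.28 and 0.45.

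C4bp, the C4b-binding protein that serves factor I as a cofactor, had the largest difference of any tested member at day 14. Its signal at day 1 was 18608, 16893 and 18829.9 in saline livers and 20854, 39955 and 22046 in diclofenac livers, of which replicate 2 stood far above the other two. At day 3 the signals were 18278, 17338 and 17384 against 27022, 23329.6 and 23168. At day 14 the saline livers gave 19849, 16394, 16491, 16004 and 14794, and the diclofenac livers 32450.5, 25649, 51082, 25356 and 28777. The groups were again apart on all 3 days, by 0.54 on the log2 scale at day 1, 0.47 at day 3 and 0.92 at day 14 (limma standard errors of 0.19, 0.19 and 0.18, with adjusted p = 0.313, 0.371 and 0.106). Serping1 and C4bp were the members apart on every day, 2 of 26, against 0.488% of the genes tested on all days.

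Cfi, the protease factor I that inactivates C3b and C4b, overlapped at day 1 and was apart at days 3 and 14. Its signals were 29033, 29976 and 29669 in saline and 39365, 35578 and 35447 in diclofenac livers of day 3. At day 14 they ran from 26682 to 35346 (median 27841) in saline and from 38138 to 51207 (median 41425) in diclofenac livers. Its log2 difference was 0.14 at day 1, 0.31 at day 3 and 0.52 at day 14 (limma, with adjusted p = 0.506, 0.194 and 0.1605). Vtn and Clu, which encode vitronectin and clusterin, both able to keep the terminal complex out of membranes, were apart at day 3 only, with differences of 0.23 and 0.20. At day 14 these were 0.39 and 0.25 with overlapping livers, and 3 further Clu probe sets gave 0.41 to 0.44. At day 1 those 3 gave 0.09 to 0.21 where the one used gave -0.02.

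**Figure D2:**
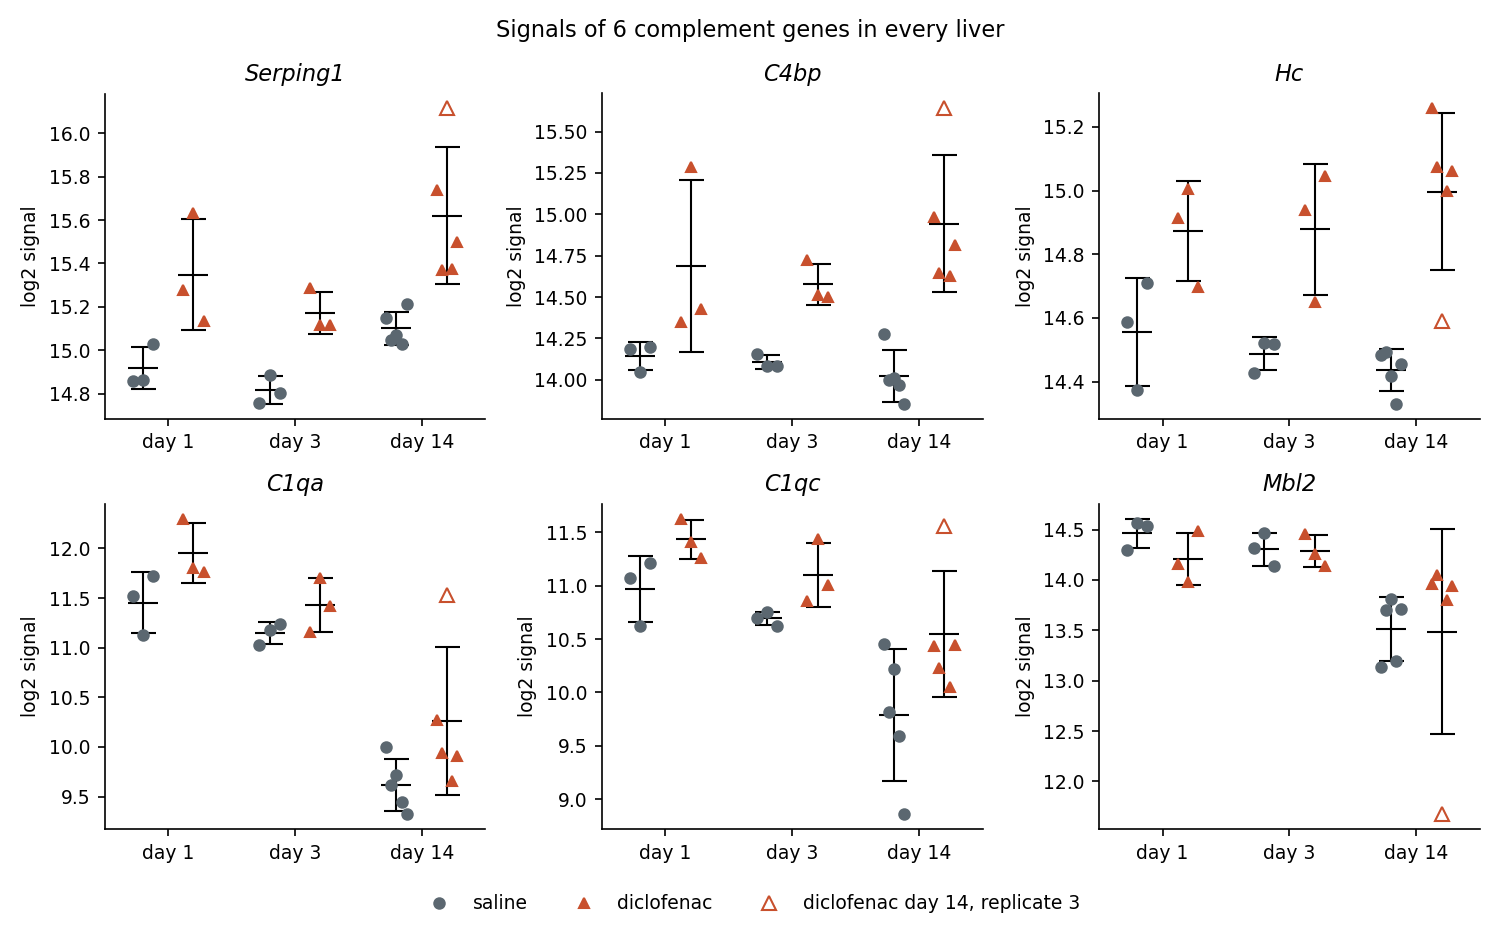
Log2 array signal (y axis) of Serping1, C4bp, Hc, C1qa, C1qc and Mbl2 in every liver at days 1, 3 and 14 (x axis), saline as grey circles and diclofenac as orange triangles, with the group mean and SD in black. Serping1 and C4bp are apart between the groups on all 3 days. The open triangle, replicate 3 of the diclofenac group of day 14, is the highest liver of its day for C4bp, C1qa and C1qc. It is the lowest of all livers for Mbl2, at a signal of 3265.

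Among the terminal components, Hc, the mouse gene of C5, had the largest difference above 0 on each day. At day 3 the saline livers had signals of 22031, 23491 and 23446 and the diclofenac livers 31422, 25688 and 33857, and at day 1 a single diclofenac liver (26587) lay below the highest saline liver (26782). At day 14 saline livers gave 22902, 23069, 21901, 20582 and 22476, and diclofenac livers 39192, 34514, 24672, 32749.5 and 34170.2. All 5 diclofenac livers of day 14 were higher, and the lowest of them was replicate 3. The log2 difference was 0.32 at day 1, 0.39 at day 3 and 0.56 at day 14, each with a limma standard error of 0.12 (adjusted p = 0.329, 0.242 and 0.136). C8a, the alpha chain of C8, was also apart at day 14, with signals from 20079 to 22539 in saline and from 25269.7 to 33624 in diclofenac livers (log2 difference 0.45, adjusted p = 0.1605 from limma). At days 1 and 3 the difference of C8a was 0.07 and 0.12. The gamma chain gene C8g had differences of -0.35, 0.07 and -0.23, the last becoming -0.09 without replicate 3 of the diclofenac group. C6, C8b and C9, the remaining terminal members, had differences between -0.11 and 0.23 on the 3 days and overlapped throughout.

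Cfb, which encodes the protease of the alternative pathway convertase, differed by 0.44 at day 1, 0.32 at day 3 and 0.63 at day 14 on the log2 scale (limma, with adjusted p = 0.251, 0.319 and 0.363). It was apart at day 3 and overlapped through a single diclofenac liver at day 1 and at day 14. Cfp, which encodes properdin, the leukocyte protein that stabilises the same convertase, had signals of 693, 490.7 and 1009 in saline livers and 1227, 1381 and 1045 in diclofenac livers of day 1. At day 3 they were 720.6, 804.8 and 696.9 against 641.2, 1239 and 802.4. At day 14 they ran from 294.6 to 486.4 in saline and from 462.3 to 1417 in diclofenac livers. The groups were apart at day 1, overlapped at day 3 and overlapped through 1 saline liver at day 14 (log2 differences 0.79, 0.22 and 0.74, adjusted p = 0.304, 0.809 and 0.384 from limma). A second, dimmer Cfp probe set gave 0.43, -0.35 and -0.02, so the properdin result rests on 1 probe set.

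In the lectin pathway the mannose-binding lectin genes Mbl1 and Mbl2 had differences of opposite sign on each day, though those of day 3 were near 0 and that of Mbl2 at day 14 rested on 1 liver. Mbl1 had signals of 11085, 10062 and 11729.6 in saline and 13311, 13929 and 13369.9 in diclofenac livers of day 1. At day 3 the signals were 11846, 13823 and 12404 against 15222, 11607 and 13801. At day 14 they ran from 5188 to 7459 in saline and from 6875 to 16118 in diclofenac livers. Only day 1 was apart, and the differences were 0.31, 0.09 and 0.57 (adjusted p = 0.308, 0.812 and 0.356 from limma). Mbl2 gave -0.26, -0.02 and -0.03. Without replicate 3 of the diclofenac group the day 14 differences were 0.39 for Mbl1 and 0.43 for Mbl2, and whether the genes differed was not tested. Masp1 and Masp2, the lectin pathway proteases, had differences from 0.02 to 0.42, with overlapping livers on all days, and 4 further Masp1 probe sets disagreed with the one used (from -0.64 to 1.35 at day 1).

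The C1q genes had higher mean signals in diclofenac livers on all days, with wide spread between livers at day 14. The chains are encoded side by side on chromosome 4 of GRCm38, C1qb from 136880126 to 136886200, C1qc from 136889801 to 136892936 and C1qa from 136895916 to 136898844. C1qc gave signals of 2148, 1571 and 2379 in saline livers and 3166, 2727 and 2457 in diclofenac livers of day 1. At day 3 they were 1665, 1726 and 1581 against 1853, 2768 and 2057. At day 14 saline livers gave 1402, 899.4, 1189, 774.3 and 464.2, and diclofenac livers 1386, 1202, 3011, 1060.1 and 1392. The groups were apart at days 1 and 3 and overlapped at day 14.

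For C1qc the log2 difference was 0.47 at day 1, 0.41 at day 3 and 0.76 at day 14 (limma standard errors of 0.17, 0.17 and 0.33, with adjusted p = 0.325, 0.405 and 0.443). C1qb had 0.68, 0.36 and 0.77, and its other 2 probe sets gave values of the same sign on each day. C1qa had 0.50, 0.28 and 0.64 and was apart at day 1, where the saline livers gave 2929, 2231 and 3380 (mean 2847) and the diclofenac livers 5045, 3569 and 3462. Without diclofenac replicate 2 the day 3 differences of C1qa, C1qb and C1qc were 0.14, 0.18 and 0.24, and at day 1 that of C1qa was 0.33 without diclofenac replicate 1 and that of C1qc 0.29 without saline replicate 2. The mean saline signal of C1qa was 2272 at day 3 and 797 at day 14, a difference between days that cannot be told apart from differences in array processing, since an 18S rRNA control averaged 12.05, 14.68 and 15.35 on the log2 scale in the saline arrays of days 1, 3 and 14.

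The order of the saline livers was shared by the 3 chains at days 1 and 14 but not at day 3. C1qa, C1qb, C1qc and C3ar1 each ranked the saline livers of day 14 in the order of replicates 1, 3, 2, 4 and 5, from highest to lowest. The summed signal of a list of Kupffer cell or macrophage markers, such as Clec4f and Cd5l, ranked them the same way, at 14543, 10233, 9064, 6582 and 5891. At day 1 the chains and the marker sum ranked replicate 3 highest and replicate 2 lowest, and C3ar1 ranked replicate 1 lowest. The genes had no common order of saline livers at day 3, with replicate 3 highest for C1qa and C1qb and replicate 2 for C1qc and the marker sum. The same list moved with treatment. All 10 of its measured genes had differences above 0 on each day (medians 0.54, 0.35 and 0.72), and its summed signal ran from 19615 to 31529 in saline and from 34066 to 51773 in diclofenac livers of day 1. At day 3 it ran from 25362 to 27252 against 29997 to 42745, and at day 14 from 5891 to 14543 against 9870 to 39943. The value of 39943 came from replicate 3 of the diclofenac group. The other diclofenac livers of day 14 gave 9870 to 14437 and all lay below the highest saline liver. On the mean of days 1 and 3, 1 of the 10, Mpeg1, rose (0.96, adjusted p = 0.037 from limma). None of these markers was at 0 in any group, which with no detection calls does not show that each was detected. The part of macrophage number in the C1q values was not tested.

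The other genes of the classical pathway, both hepatocyte-made, differed by less. C1ra, the protease activated inside the C1 complex, had differences of 0.13, 0.10 and 0.37, and C2, the protease of the classical convertase, had 0.26, 0.12 and 0.25, with overlapping livers on every day. Hepatocyte markers such as Alb and Ttr, 7 genes, had median differences of 0.02, 0.15 and 0.14. Over the 18 hepatocyte-made members the median log2 difference was 0.12, 0.16 and 0.38 at days 1, 3 and 14, and over the 4 macrophage-made members it was 0.48, 0.32 and 0.70, where the median of all tested genes was 0.001, 0.009 and -0.014. With 1 array left out, the hepatocyte-made median fell to 0.076 at day 1 (without diclofenac replicate 2) and 0.057 at day 3 (without diclofenac replicate 3) and stayed between 0.34 and 0.41 at day 14. The macrophage-made median fell to 0.31 at day 1 (without saline replicate 2), 0.16 at day 3 (without diclofenac replicate 2) and 0.37 at day 14 (without diclofenac replicate 3). These medians describe the groups of genes, and whether they differ was not tested. Within the livers of day 14, the median deviation of the hepatocyte-made members from the saline mean ran from 0.25 to 0.56 with diclofenac and from -0.07 to 0.09 with saline. That of the macrophage-made members ran from 0.19 to 1.84 with diclofenac and from -0.78 to 0.72 with saline. The hepatocyte-made medians of day 3 ran from 0.039 to 0.26 with diclofenac and from -0.04 to 0.02 with saline, and the macrophage-made from 0.002 to 0.63 and from -0.01 to 0.05. At day 1 the hepatocyte-made medians ran from 0.06 to 0.19 and from -0.09 to 0.08, and the macrophage-made from 0.30 to 0.75 and from -0.34 to 0.26. By this measure the hepatocyte-made members were apart at days 3 and 14 and overlapped at day 1, while the macrophage-made members were apart at day 1 and overlapped at days 3 and 14.

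**Figure D3:**
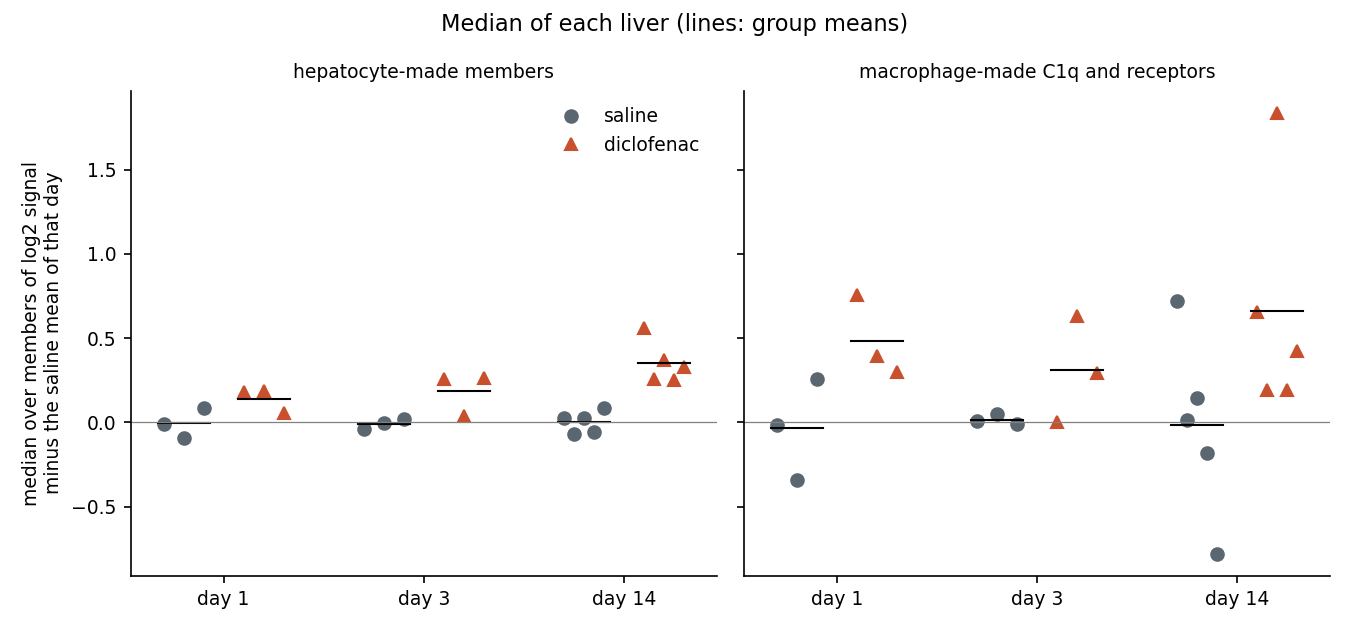
Median over the 18 hepatocyte-made members (left) and the 4 macrophage-made members (right) of each liver's log2 signal minus the saline mean of its day (y axis), by day (x axis), with saline as grey circles, diclofenac as orange triangles and group means as lines. At day 14 the hepatocyte-made medians of the diclofenac livers (0.25 to 0.56) lie above all saline livers, while the macrophage-made medians overlap, and at day 1 it is the macrophage-made medians that are apart (0.30 to 0.75 with diclofenac, up to 0.26 with saline) and the hepatocyte-made ones that overlap.

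Promoter sequences from RefSeq (GRCm38.p6) are given for C4bp, apart on all 3 days, for C8a, apart at day 14, and for 2 neighbouring C1q chains, so that hepatocyte-made and macrophage-made members can be read side by side. Capitals mark matches, on either strand, to 4 motifs: TTCNNNGAA (STAT-type), TTNNGCAA (C/EBP-type), an NF-kB-type motif (GGG and CC with 5 bases between, whose matches can overlap each other) and GAGGAA (PU.1-type, read as TTCCTC on the other strand). The windows are the 250 bases before the annotated start, printed up to the edge of the gene, all on the minus strand and 5′ to 3′: chr1:130661658-130661868 for C4bp, chr4:104876488-104876648 for C8a, chr4:136886201-136886450 for C1qb and chr4:136892937-136893164 for C1qc.
C4bp: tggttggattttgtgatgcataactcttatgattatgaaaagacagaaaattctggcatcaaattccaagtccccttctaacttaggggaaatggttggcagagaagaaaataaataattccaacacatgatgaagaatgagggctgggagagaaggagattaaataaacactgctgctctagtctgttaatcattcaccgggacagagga
C8a: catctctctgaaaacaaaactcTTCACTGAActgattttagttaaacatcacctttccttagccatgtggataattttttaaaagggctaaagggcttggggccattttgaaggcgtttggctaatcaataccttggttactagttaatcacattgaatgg
C1qb: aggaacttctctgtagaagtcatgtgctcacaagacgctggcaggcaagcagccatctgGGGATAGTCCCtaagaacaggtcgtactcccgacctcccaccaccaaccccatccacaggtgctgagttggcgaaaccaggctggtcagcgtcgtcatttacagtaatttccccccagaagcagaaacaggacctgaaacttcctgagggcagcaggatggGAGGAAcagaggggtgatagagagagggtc
C1qc: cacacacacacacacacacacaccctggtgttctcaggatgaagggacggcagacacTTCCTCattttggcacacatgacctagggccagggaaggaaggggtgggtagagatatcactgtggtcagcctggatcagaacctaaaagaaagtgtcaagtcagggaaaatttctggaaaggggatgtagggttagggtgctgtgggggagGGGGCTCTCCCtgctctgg
The C4bp window held no match. The C8a window held a STAT-type match (TTCACTGAA), a motif found in 7.02% of 32851 promoters and in 2 of 22 promoters of 21 members. Both C1q windows held the NF-kB-type motif and GAGGAA, motifs found in 45.8% and 23.3% of all promoters and in 8 and 3 of the 22. TTNNGCAA was found in 9.56% of all promoters and in 2 of the 22, those of C3 and C9. A match describes the letters only.

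The membrane regulators are many-tissue proteins that protect the body's own cells. Cd55, which encodes decay accelerating factor, had the largest mean effect over days 1 and 3 of any tested member, 0.83 (standard error 0.19, adjusted p = 0.0659 from limma). Its signals were 223.5, 304.8 and 287.3 in saline and 526.9, 412.1 and 323.7 in diclofenac livers of day 1. At day 3 they were 187.6, 231.5 and 310.8 against 621, 581 and 323.6. At day 14 saline livers ran from 134.7 to 252.2 and diclofenac livers gave 166.2, 203.8, 622.6, 252.9 and 165.4. The groups were apart at days 1 and 3 and not at day 14, where 1 liver stood far above the rest. By day, the log2 difference was 0.61, 1.04 and 0.41 (limma standard errors of 0.27, 0.27 and 0.35, with adjusted p = 0.370, 0.174 and 0.680), and 2 further probe sets gave differences above 0 on each day. Cd59a, which encodes the inhibitor of C9 insertion, had -0.23, -0.06 and 0.05. A second Cd59a probe set gave -0.42, -0.14 and -0.08, so that the sign at day 14 depends on the probe set.

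Of the receptors, none was apart on any day. C5ar1 had signals of 69, 81.3 and 30.7 in saline and 67.1, 11.1 and 29.8 in diclofenac livers of day 1, and 73.7, 15.6 and 63.6 against 69.9, 9.55 and 56.2 at day 3. At day 14 they were 38.7, 43.2, 48.95, 16.5 and 6.92 against 35.6, 66.7, 48.6, 56.3 and 60.4. These signals lay mostly below the median of their array (75.2 to 89.9), and the log2 differences of -0.98, -0.32 and 1.08 had p = 0.2, 0.6 and 0.0635 in two-sided exact permutation tests, which can go no lower than 0.1 with 3 against 3 livers and 0.00794 with 5 against 5. A second C5ar1 probe set gave 1.02 at day 1 and 0.36 at day 3, so that the sign on both of these days depends on the probe set. C3ar1 had -0.21, 0.11 and 0.24, and Cd93, a lectin-like receptor of endothelium and myeloid cells once taken for a C1q receptor, had 0.43, -0.19 and -0.06. For both genes the probe sets disagreed. At day 3 the other C3ar1 probe sets gave -0.42 and 0.12, and the other Cd93 probe sets from -1.56 to 1.10.

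Counted over all members, 7 of 26 had every diclofenac liver above every saline liver at day 1 (8.23% of all genes), 9 at day 3 (10.8%) and 5 at day 14 (2.18%), and 0 had every diclofenac liver below (8.1%, 9.21% and 1.6%). The 7 were C1qa, C1qc, Cfp, Mbl1, Serping1, C4bp and Cd55, the 9 were C1qc, Hc, Cfb, Cfi, Serping1, C4bp, Cd55, Vtn and Clu, and the 5 were Hc, C8a, Cfi, Serping1 and C4bp. The 5 of day 14 were all hepatocyte-made, while the earlier counts also held C1qa, C1qc, Cfp and Cd55, and this contrast between days was not tested. On at least 2 days, 6 members were apart (2.98% of all genes): C1qc, Hc, Cfi, Serping1, C4bp and Cd55.

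The size of the effect was compared between times. The day 3 minus day 1 effect gave 0 members with an adjusted p under 0.05 (limma, 0% of all genes), 0 higher and 0 lower at an unadjusted p under 0.05 (2.68% and 2.71% of all genes), with 12 of 26 above 0 (52%). The effect at day 14 minus the mean of days 1 and 3, in a model of all 22 arrays, also gave 0 members (0.015% of all genes higher and 0.0075% lower), while 21 of 26 were above 0 (47.9% of all genes). At an unadjusted p under 0.05, C8a, Cfi and Masp1 were higher in this difference (3.1% of all genes) and no member was lower (3.35%), the 3 by 0.36, 0.29 and 0.37 (adjusted p = 0.765, 0.770 and 0.765 from limma). Between saline livers alone, day 3 against day 1, no member had an adjusted p under 0.05 (0.155% of all genes higher and 0.0621% lower), and 7 of 26 were above 0 (43.6% of all genes). Cfb, Masp2 and Cd59a were lower in the later saline livers at an unadjusted p under 0.05 (6.14% of all genes), with differences of -0.26, -0.40 and -0.24, and no member was higher (4.24%). As for C1qa, these differences between days cannot be told apart from differences in array processing.

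In replicate 3 of the diclofenac group of day 14 the complement genes themselves were far from those of the other livers. Its correlation with an array of its own group was the lowest within any group. Its signals for C1qa, C1qb and C1qc were 2951, 3185 and 3011, and it was the highest liver of day 14 for C4bp, Serping1, Vtn, Cfb, Mbl1, C1ra, Cfp, Cd55 and Cd93. In contrast, its Mbl2 signal of 3265 compares with 14287 to 16895 in the other diclofenac livers and 9011 to 14356 in saline livers. It was also the lowest diclofenac liver for Hc, C6, C8b, C8g (11864), C9 (21144) and Cd59a (1773). The hepatocyte-made members therefore spread both ways within this liver, from -2.26 to 1.02 on the log2 scale against the mean of the other diclofenac livers.

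**Figure D4:**
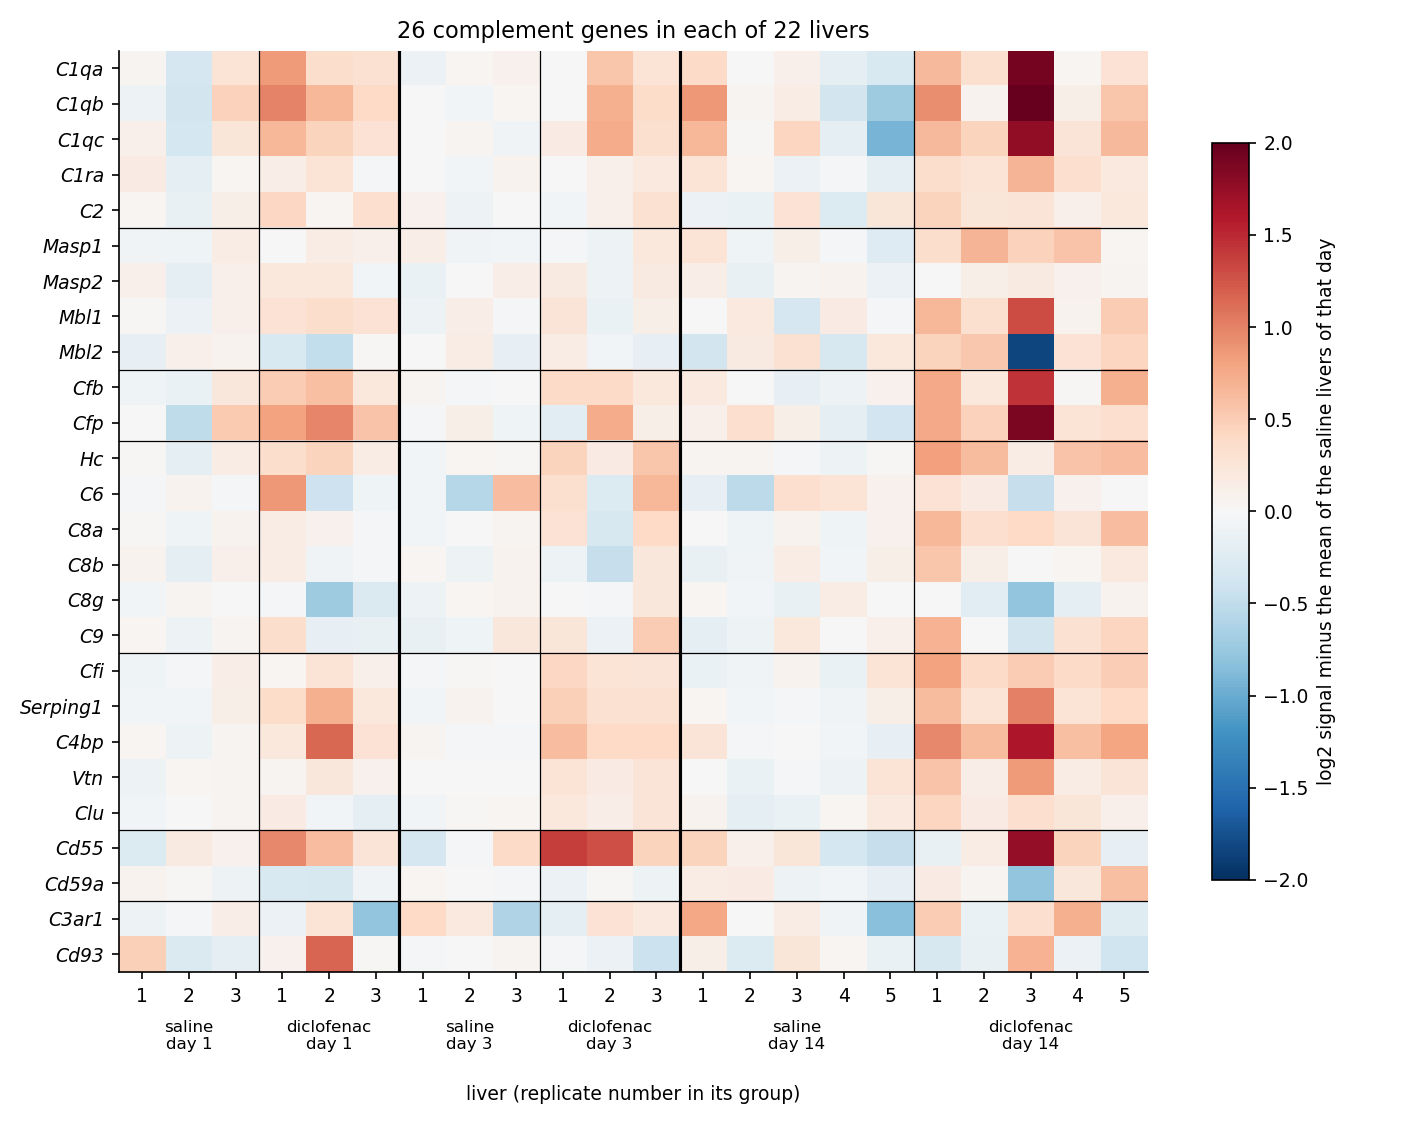
Log2 signal of 26 members (rows, grouped by role) in each of 22 livers (columns, grouped by treatment and day) minus the mean of the saline livers of the same day, with red above and blue below, cut at 2 in either direction. Replicate 3 of the diclofenac group of day 14 is dark red for C1qa, C1qb, C1qc, Cfp, C4bp and Cd55 and dark blue for Mbl2, and replicate 2 of the diclofenac group of day 1 is the highest for C4bp and the lowest for C8g among the livers of its day.

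Without that liver, 3 members rose at day 14: Hc by 0.66 (standard error 0.08, adjusted p = 0.00572), C4bp by 0.75 (0.10, adjusted p = 0.0105) and C8a by 0.47 (0.10, adjusted p = 0.0477, limma). In that model 0.681% of all genes were higher and 0.366% lower. The liver was left out after its values had been seen, so the adjusted p values without it are not those of a planned test. With all livers kept, no member was called at day 14. In the model without that liver, 15 members were higher at an unadjusted p under 0.05 in limma (7.06% of all genes). The difference of Mbl2 became 0.43 (adjusted p = 0.203) in place of -0.03, that of Cd55 0.07 in place of 0.41, and those of C1qa, C1qb and C1qc 0.33, 0.42 and 0.50 in place of 0.64, 0.77 and 0.76 (limma). Cfb had 0.42 in place of 0.63 and Cfp 0.45 in place of 0.74. C9 had 0.36 in place of 0.21, Cd59a 0.26 in place of 0.05 and Cd93 -0.24 in place of -0.06.

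The same liver had the highest summed signal of neutrophil and of monocyte markers of all 22 livers. Its summed signal of 9 neutrophil markers, such as S100a8 and S100a9, was 24270 against 742 to 2483 in the other diclofenac livers and 391 to 624 in saline livers of day 14. At day 1 a single diclofenac liver, replicate 2, had a comparable sum, 21938 against 1097 and 1466 in the other diclofenac livers and 787 to 1202 in saline livers. At day 3 the sums were 1951 to 3020 with diclofenac and 566 to 607 with saline. None of these markers was at 0, which does not show detection here either. On the mean of days 1 and 3, 1 of 7 tested, S100a9, rose (3.13, adjusted p = 0.037 from limma). Of the neutrophil genes tested, 6 of 7 were above 0 at day 1, 7 of 7 at day 3 and 6 of 6 at day 14. Their median differences were 0.75, 0.72 and 1.53, and Ltf had -0.33 at day 1. The sum of 3 monocyte markers was 2027 in this liver, 1062 in replicate 2 of day 1 and 1035 in the next highest, and the highest saline liver had 251. One of these markers, Chil3, a chitinase-like protein of myeloid cells, rose by 4.98 on the mean of days 1 and 3 (adjusted p = 0.0131 from limma) and differed by 4.99 at day 14 (adjusted p = 0.0788). Of the 3 monocyte genes, 2, 3 and 3 were above 0 on the 3 days (medians 0.43, 1.03 and 1.15). Ccr2 had -0.52 at day 1. The part of both lists in the complement values was not tested.

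Of the other cell types, the stellate cell markers lay lower with diclofenac. Of 5 such genes, 1 was above 0 at day 1, 1 at day 3 and 0 at day 14 (medians -0.54, -0.27 and -0.37), and on the mean of days 1 and 3 Reln, which encodes reelin, fell by 0.65 (adjusted p = 0.044 from limma). Their summed signal ran from 15430 to 18555 in saline and from 10219.5 to 12537 in diclofenac livers of day 1 and overlapped at days 3 and 14. No gene of the endothelial, adipocyte, lymphocyte or cholangiocyte lists was called by limma at an adjusted p under 0.05. Median differences at days 1, 3 and 14 were 0.09, -0.16 and -0.07 over 7 endothelial genes, and 0.10, 0.14 and -0.26 over 4, 4 and 2 lymphocyte genes tested. Those of cholangiocyte genes were 0.04, 0.94 and 1.09 over 3, 3 and 2 genes tested. The 1 adipocyte gene tested, Retn at days 1 and 3 and Cidec at day 14, gave 1.02, 0.99 and -2.33. None of these markers was at 0, which again does not show detection, and their part in the complement values was not tested.

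Set against the other diclofenac livers of its day, replicate 2 of day 1 was higher for C4bp (39955, by 0.90 on the log2 scale), Serping1 (50784, 0.42) and Cfb (18028, 0.24) and lower for C6 (2317, -0.81), C8g (14177, -0.56), Mbl2 (16165, -0.34) and C9 (27098, -0.27). Without this liver the day 1 difference of C4bp was 0.25 in place of 0.54, and that of Serping1 0.29 in place of 0.43. For replicate 3 of day 14 the same quantity was 0.87, 0.62 and 1.02 for C4bp, Serping1 and Cfb, and -0.60, -0.71, -2.26 and -0.72 for C6, C8g, Mbl2 and C9. Of the 18 hepatocyte-made members, 13 deviated with the same sign in both livers, 8 above and 5 below (Pearson's r = 0.649 across these genes). Over all 26 tested members 17 had the same sign and the value was 0.407, no higher than that of all genes. Across all 11692 genes tested on all days the value was 0.42, with 7769 of the same sign. These are descriptions of 2 livers that were chosen after their values were seen. C1q differed between them, being 1.27 to 1.74 above the other livers in replicate 3 of day 14 and -0.23 to -0.03 in replicate 2 of day 1.

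Further complement genes outside the 30 showed no common direction. Of 31 such genes fixed as a list, 18 had a probe set and 16, 16 and 15 were tested at days 1, 3 and 14, of which 0 had an adjusted p under 0.05 in limma, and 11, 9 and 7 were above 0. Their median differences were 0.05, 0.02 and -0.01. Vsig4, the complement receptor of Kupffer cells that is also one of the macrophage markers, had a mean effect at days 1 and 3 of 0.49 (adjusted p = 0.0556), and Itgb2, the beta chain of complement receptor 3, had 0.64 (adjusted p = 0.0529, limma). Lower values came from Colec11, a collectin that recognises sugars for the lectin pathway and is also one of the stellate markers, with -0.38 (adjusted p = 0.121), and from C1qbp, a C1q-binding protein of mitochondria and the cell surface, with -0.27 (adjusted p = 0.226, limma).

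Array quality measures moved with treatment, though not each of them on every day. Control probe sets at the 3′ end exceeded those at the 5′ end of their transcripts by 0.736 (diclofenac) and 0.624 (saline) on the log2 scale at day 14. This excess was 0.830 with diclofenac and 0.776 with saline at day 3, and 0.584 and 0.594 at day 1. Spiked hybridisation controls averaged higher in diclofenac than in saline arrays on all 3 days. On the log2 scale they averaged 12.24 against 12.04 at day 14, 12.05 against 11.86 at day 3 and 12.21 against 12.09 at day 1. The highest array of day 1 was diclofenac replicate 2 (12.34), and the highest of day 14 was diclofenac replicate 3 (12.44). Their part in the differences was not tested.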

How the data were processed

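RNA of 22 livers was hybridised to Affymetrix Mouse 430 2.0 arrays, 1 per mouse. The deposited values are signal intensities on a linear scale that the authors made with MAS5 and scaled per array (mean 500 after trimming 2% at either end), with no detection calls. They were analysed as log2 values, with no scaling added. Of the probe sets, 34958 have 1 gene, 932 several and 9211 none listed, and the single-gene probe set of highest mean stood for each gene. A gene was tested when above its array's median in at least 3 arrays, 12884 genes at days 1 and 3, 11884 at day 14 and 13340 over all 22 arrays. The tests are those of limma 3.58.1 in R 4.3.3 (eBayes with a trend, two-sided, Benjamini-Hochberg over all genes, threshold 0.05), from one fit to the 12 early arrays (days 1 and 3) and a separate fit to the 10 arrays of day 14. The procedure was tested on simulated data with planted changes larger than nearly all member differences given here. That test does not cover smaller differences. The number of arrays limits the precision.

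The members and all lists were chosen with earlier results of these data known. Members are given in full when called, when their livers were apart on 2 or more days, or when largest in their role by mean difference. Markers of hepatocytes, macrophages, neutrophils, monocytes, endothelium, stellate cells, adipocytes, lymphocytes and cholangiocytes were also measured. Replicate numbers were not used as pairs, since the labels do not say that equal numbers share an animal, litter or day. Residuals of arrays sharing a number and a day correlated over 0.1 in 1 of 11 pairs, which cannot exclude a pairing. Positions and promoters are those of RefSeq on GRCm38.p6. Alternatives were other filters, quantile normalization, centring, an added median, other uses of probe sets, other array sets, array weights, a replicate block, the methods' t-test and leaving out each array.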

Additional observations from a re-analysis of the deposited data

Results flagged for a closer look

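In 54 groups of 5 livers, 4 had a liver far from the others by Dixon's ratio, its gap to the nearest liver divided by the range of the group on the log2 scale, and chance gives about 1 in 20. Replicate 3 of the diclofenac group of day 14 was far above its group for C1qc (ratio 0.739, signal 3011) and Cd93 (0.741, signal 731) and far below it for Mbl2 (0.898, signal 3265). For Vtn, replicate 5 of the saline group of day 14 was far above the other saline livers (0.715, signal 56392).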

How the results depend on the processing

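Of 346 counts and medians recomputed under alternatives, 310 stayed close to the reported value, and of the values of single genes 1111 kept sign and side of the threshold, 26 gained a call, 15 lost one and 5 changed sign. The sign changes were small: C8a at day 1 became -0.0078 with quantile normalization, Cfp at day 3 became -0.064 with the mean of all probe sets, and with 1 array left out Mbl1 at day 3 ranged from -0.00087 to 0.19 (lowest without diclofenac day 3 replicate 1), Cfp from -0.044 to 0.43 (without replicate 2) and C8a from -0.015 to 0.35 (without replicate 3). At day 3, 1 member (C4bp) was called with each day on its own arrays, and 0 to 2 with 1 array left out, the 2 being Serping1 and C4bp without diclofenac day 1 replicate 2. At day 14, 4 members were called with all 22 arrays in one model (Serping1, C4bp, Hc and Cfi), 3 with array weights (C4bp, Hc and Cfi), 1 by the methods' t-test without adjustment, and 0 to 3 with 1 array left out, the 3 without diclofenac day 14 replicate 3. For the mean of days 1 and 3, in place of 1 member, 0 were called with no filter, with arrays centred on the median, with the mean of all probe sets, with every probe set on its own and with all 22 arrays. For the same effect 2 were called with the filter at the 60th percentile, with the median signal added and with array weights, and 0 to 5 with 1 array left out, the 5 without diclofenac day 1 replicate 3 and 0 without any 1 of saline day 1 replicates 1 and 2, saline day 3 replicates 1, 2 and 3, and diclofenac day 3 replicates 1 and 2. Under quantile normalization the 1 member called was Cfb (adjusted p = 0.0465, limma) and Serping1 had 0.0577. With a replicate block, 0 members were called for this mean effect (Serping1 adjusted p = 0.118, limma), and the block changed no other count. Members with every diclofenac liver above every saline liver numbered 7 to 13 at day 1 with 1 array left out (13 without saline replicate 3, 12 without diclofenac replicate 3), and members below numbered 0 to 3 at day 1 (3 without diclofenac replicate 1) and 0 to 1 at day 3, an alternative chosen after seeing the data. The dimmest member, C5ar1, lay below the filter and has no value from limma.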
